A study of Mus musculus with 384 samples.

Results

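The genes described here are 10 components of the Notch pathway, chosen by name: the receptors Notch1 and Notch2, the ligands Jag1, Jag2, Dll1 and Dll4, and the transcriptional targets Hes1, Hey1, Hey2 and Heyl. All 10 were present in the deposited count table and in the log2 table of quality-filtered cells. They were followed by mouse line and by the level of Acta2, the gene of smooth muscle alpha-actin, with the mouse as the replicate.

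The data were single cells from dissociated lungs of 4 mice, sequenced by Smart-seq2, a full-length RNA-seq protocol that carries no molecular identifiers. The Lgr5 line consisted of 2 Lgr5-CreERT2;R26-Tom mice, in which a tamoxifen-inducible Cre expressed from the Lgr5 locus switches on a heritable tdTomato reporter, and the sorted cells were CD31-, CD45-, CD11b-, TER119- and Tom+. The Lgr6 line consisted of 2 Lgr6-EGFP-CreERT2 mice, in which GFP is made from the Lgr6 locus itself, and the sorted cells were negative for the same 4 surface proteins and GFP+. Mice aged 7 to 10 weeks were used for most experiments of the study. Tom marks cells in which Lgr5 was active at induction together with their descendants, whereas GFP reports Lgr6 activity at the time of the sort, so marker gene, allele and kind of label cannot be told apart in a comparison of the lines. The sort removed cells with endothelial, leukocyte, myeloid and erythroid surface proteins, and EpCAM was stained but was not among the surface proteins that the labels list for the sorted cells.

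Notch receptors are single-pass membrane proteins that bind Jagged or Delta-like ligands on a neighbouring cell. Ligand binding exposes the receptor to ADAM proteases and then to gamma-secretase, and the freed intracellular domain enters the nucleus, where it joins the DNA-binding protein Rbpj and Mastermind co-activators to switch on Hes and Hey repressor genes. In the lung the pathway is known for setting the balance of secretory and ciliated cells in the airway epithelium and for the recruitment and maturation of smooth muscle around vessels.

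Of 384 wells, 380 held single cells and 4 held pools, and the authors' quality filter kept 29 and 28 single cells of Lgr5 mice 1 and 2, and 50 and 75 of Lgr6 mice 1 and 2. Summed over the kept cells, the mice had 9874249, 13198680, 28875278 and 124650544 reads in the same order. Median depths per cell were 263129 and 272729 reads in the Lgr5 line, 332588 in Lgr6 mouse 1 and 1537593 in Lgr6 mouse 2, over a range of 9748 to 4538878 reads for single cells. Lgr6 mouse 2 thus stood apart in depth, and shares of cells with a read were also computed after each cell was thinned to 99000 reads, which kept 28, 25, 37 and 73 cells and left out 19 shallower ones. All confidence intervals for shares of cells are exact Clopper-Pearson intervals of 95%. Where no cell of a group had a read, the upper limit given in place of an interval is 3 cells of the group's total. Intervals and limits cover counting error only and leave out the spread between mice, since cells of 1 mouse are not replicates. Reads are not independent molecules either, as PCR copies carry no molecular identifiers.

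The labels were checked against the genes they name. At least 1 Lgr5 read was found in 23 of 29 and 21 of 28 Lgr5-line cells, against 11 of 50 and 28 of 75 Lgr6-line cells. Lgr6 reads were found in 13 of 50 and 26 of 75 Lgr6-line cells (26% and 34.7%) and in 8 of 29 and 9 of 28 Lgr5-line cells (27.6% and 32.1%), so they did not separate the lines. Acta2 separated the lines: a level of at least 11 on the log2(TPM+1) scale (TPM, transcripts per 1e6) was reached by 1 of 29 and 0 of 28 Lgr5-line cells but by 27 of 50 and 38 of 75 Lgr6-line cells. The 66 cells at or above this level are called Acta2-high and all other kept cells Acta2-lower (28, 28, 23 and 37 by mouse). The highest cell below the limit was at 10.97 and the lowest above it at 11.03, and 32 cells lay between 10 and 12, so the classes are ranges of 1 gene's level and not cell types.

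The 2 classes also differed in markers of other cell types. In the Lgr6 mice the mean levels of 10 smooth muscle genes added up to 18405 and 17561 TPM in Acta2-high cells and to 1059 and 1234 TPM in Acta2-lower cells. Conversely, 8 epithelial genes added up to 87.9 and 5.39 TPM in Acta2-high cells, with Epcam at 0, and to 43759 and 34853 TPM in Acta2-lower cells, nearly all of it from the surfactant gene Sftpc at 42686 and 33956 TPM. In the Lgr5 mice the same epithelial sum was 24887 and 29658 TPM, again led by Sftpc. The 8 immune genes added up to 27.2 and 90.8 TPM in Acta2-high and 12067 and 7534 TPM in Acta2-lower cells of the Lgr6 mice and to 1453 and 4504 TPM in the Lgr5 mice, almost entirely from Lyz2 except in the Acta2-high cells of Lgr6 mouse 2, where Tyrobp led, while Ptprc, the gene of CD45, was at 0 in 1 mouse of each line and in the Acta2-high cells of both Lgr6 mice. The 10 mural and pericyte genes added up to 406 and 293 TPM in the Lgr5 mice and to 745 and 699 TPM in the Lgr6 mice, led by Kcnj8, and the 5 mesothelial genes to at most 23.3 TPM in any mouse, led by Krt19. The 10 endothelial genes stayed at 11.8, 35.6, 29.3 and 9.81 TPM across the 4 mice. Pecam1, the gene of CD31, was at 0 in every kept cell. The authors' filter acted on Pecam1 and Ptprc, so the near-absence of both was set in advance.

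Notch2 (chr3:98013527-98150361, plus strand; GENCODE vM21 annotation of GRCm38, the assembly also called mm10) was the receptor found most often. Reads of it were present in 18 of 29, 14 of 28, 31 of 50 and 51 of 75 kept cells, which is 62.6% of all kept cells (95% interval 55.2 to 69.7). It was the only 1 of the 10 genes detected in at least 20% of the cells. Its mean log2(TPM+1) over cells was 1.96 and 1.74 for Lgr5 mice 1 and 2, against 2.66 and 2.46 for Lgr6 mice 1 and 2. The 2 lines therefore did not overlap on this scale over all kept cells. Cells within a mouse varied far more than the mice did, with standard deviations of 2.24, 2.27, 2.74 and 2.84. In Acta2-lower cells alone the lines overlapped, with means of 1.92 and 1.74 against 2.04 and 1.89. Smooth muscle markers moved with the lines, adding up to 2321 and 779 TPM in the Lgr5 mice and 10426 and 9506 TPM in the Lgr6 mice. The part of these markers in the Notch2 values was not tested. In mean TPM over all kept cells Notch2 stood at 24.3, rank 4523 among all genes of the filtered table.

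Summed reads gave Notch2 41.2 CPM (counts per 1e6 counts of the same sum) in Lgr5 mouse 1 and 91.8 in mouse 2, against 133.7 and 139.2 CPM for Lgr6 mice 1 and 2. The summed level was thus lower in both Lgr5 mice, which differed from each other more than the Lgr6 mice did. Thinned to equal depth, the share of cells with a read was 53.6% and 44% against 62.2% and 49.3%. The shares of the lines overlapped both before and after thinning, and that of Lgr6 mouse 2, the most deeply sequenced, went from 68% to 49.3%.

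**Figure D1:**
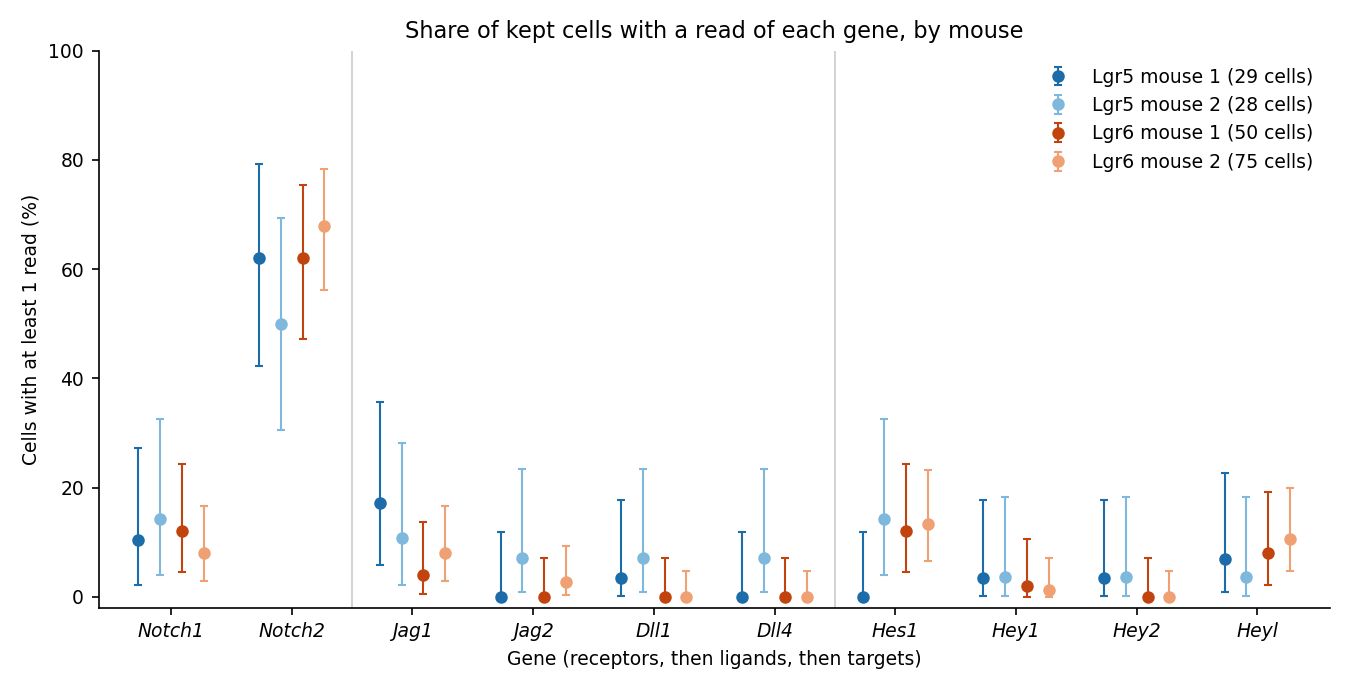
Share of kept cells with at least 1 read (y axis, percent) of each of the 10 genes (x axis) in the 4 mice, with exact 95% confidence intervals as bars. Notch2 reached 50% to 68% in every mouse, and no other gene exceeded 17.2% in any mouse.

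Notch1 (chr2:26457903-26516663, minus strand), the other receptor, was found in few cells. It had reads in 3 of 29, 4 of 28, 6 of 50 and 6 of 75 kept cells, 10.4% of them all (95% interval 6.40 to 15.8). Its summed level was 6.89 and 30.8 CPM for the Lgr5 line and 21.4 and 23.7 CPM for the Lgr6 line, so that the Lgr5 mice lay on either side of the Lgr6 mice. Of the 19 cells with Notch1 reads, 13 also had Notch2 reads and 6 did not. The share of cells with Notch1 was close in the 2 lines and, at 10.7%, 12%, 10.8% and 8.22% after thinning, gave no order that exceeded the counting error.

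Between Acta2-high and Acta2-lower cells of the same mouse, Notch2 was higher in the Acta2-high class of both Lgr6 mice. Mean log2(TPM+1) of Notch2 was 3.19 in Acta2-high and 2.04 in Acta2-lower cells of Lgr6 mouse 1, a difference of 1.16, and 3.01 against 1.89 in Lgr6 mouse 2, a difference of 1.12. In summed reads the ratio of the classes was 1.32 in mouse 1 and 3.03 in mouse 2. The share of cells with a Notch2 read differed less, at 18 of 27 against 13 of 23 and at 26 of 38 against 25 of 37. The median depth of the classes was 418813 against 165685 reads in mouse 1 but 1546057 against 1511706 in mouse 2, so a gap in depth went along with the class in mouse 1 and hardly in mouse 2. Thinned, the shares were 71.4% against 50% and 51.4% against 47.2%.

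Notch1 went the other way, with fewer reads in the Acta2-high class of both mice. Its mean log2(TPM+1) was 0.24 in Acta2-high and 0.76 in Acta2-lower cells of Lgr6 mouse 1, and 0.32 and 0.53 in Lgr6 mouse 2. It was detected in 2 of 27 against 4 of 23 cells and in 2 of 38 against 4 of 37 cells, counts too small to separate the classes. The summed reads had Acta2-high to Acta2-lower ratios of 0.422 and 0.512.

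**Figure D2:**
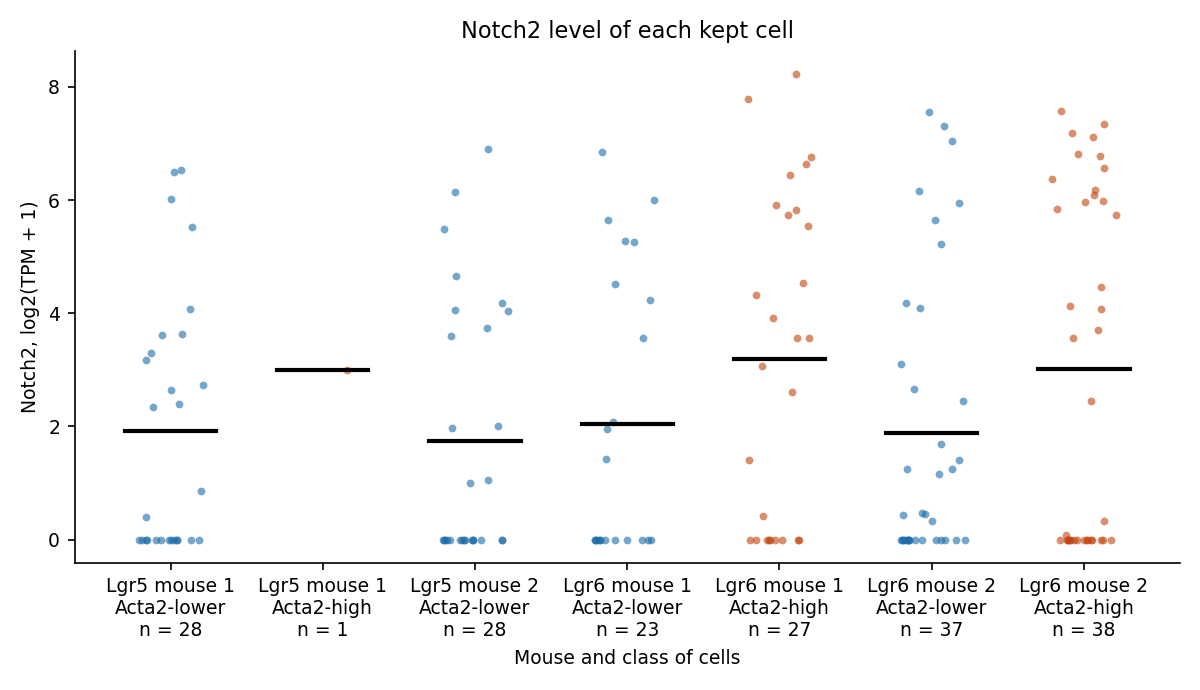
Notch2 level of each kept cell (y axis, log2(TPM+1)) by mouse and Acta2 class (x axis), with the mean as a black line. Means of the Acta2-high cells of the Lgr6 mice lie at 3.19 and 3.01, those of the Acta2-lower cells of all 4 mice between 1.74 and 2.04, and every group with more than 1 cell contains cells at 0.

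The ligands were rare in the kept cells. Jag1 (chr2:137081456-137116644, minus strand), which encodes Jagged 1, had reads in 5 of 29, 3 of 28, 2 of 50 and 6 of 75 cells, 16 cells in all (8.79%). Its summed level was 1.01, 10.8, 14.4 and 6.92 CPM in the 4 mice, and a single cell held 50%, 78.9%, 87.3% and 52.6% of the reads. In 3 of the 4 mice the Jag1 level therefore rested mostly on 1 cell. By class, Jag1 was found in 2 of 27 Acta2-high and 0 of 23 Acta2-lower cells of Lgr6 mouse 1, but in 1 of 38 and 5 of 37 cells of Lgr6 mouse 2, opposite orders in the 2 mice.

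Jag2 (chr12:112907819-112929776, minus strand) had reads in 4 cells, 2 of Lgr5 mouse 2 and 2 of Lgr6 mouse 2. Dll1 and Dll4, which encode Delta-like ligands, were seen only in the Lgr5 line among kept cells. Dll1 (chr17:15367354-15376872, minus strand) had 64 reads in 3 cells, 59 of them in 1 cell, and Dll4 (chr2:119325784-119335962, plus strand) had 6 reads in 2 cells of Lgr5 mouse 2. In the Lgr6 line both were at 0 of 50 and 0 of 75 cells, which together allows a share of cells with a read of up to 2.4%. With 3 reads over the group as the floor, Dll4 was 13.3-fold above it in the summed reads of the Lgr5 line. Dll1 stood at 2.77 CPM there against a floor of 0.0195 CPM. Without the depth of Lgr6 mouse 2 the ratio of Dll4 was 2.50-fold and the floor 0.104 CPM. Reads of 1 cell are not independent, so these ratios are no lower bounds. These values rest on 2 and 3 cells, and without Lgr5 mouse 2 only 3 reads of Dll1 and none of Dll4 remained. Dll1, Dll4 and Hey2 were at 0 in all 66 Acta2-high cells, which allows up to 4.55%.

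Among the targets, Hes1 and Heyl were found in more than 4 cells, and Hey1 and Hey2 were not. Hes1 (chr16:30064384-30067796, plus strand), a repressor induced by Notch in many tissues, had reads in 0 of 29, 4 of 28, 6 of 50 and 10 of 75 cells, 20 cells in all (11%; 95% interval 6.84 to 16.5). Its summed level was 0 and 1.67 CPM for the Lgr5 line against 5.09 and 14.9 for the Lgr6 line. Both Lgr5 mice were thus below both Lgr6 mice in summed reads, while the share of cells with a read overlapped, at 14.3% in Lgr5 mouse 2 against 12% and 13.3% in the Lgr6 mice. The 0 of 29 cells of Lgr5 mouse 1 allows a share of up to 10.3%.

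Heyl (chr4:123233556-123249875, plus strand), a Hey-family repressor known as a Notch target in vascular smooth muscle, had reads in 2 of 29, 1 of 28, 4 of 50 and 8 of 75 cells, 15 cells in all (8.24%; 95% interval 4.69 to 13.2). The summed levels were 12.9 and 3.11 CPM for the Lgr5 line against 49.2 and 26.02 for the Lgr6 line, with no overlap between the lines. In Lgr6 mouse 1, however, 1364 of the 1421 Heyl reads came from 1 cell.

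Hey1 (chr3:8663359-8667256, minus strand) had reads in 1 cell of each mouse, with 234 of its 247 reads in a single cell of Lgr6 mouse 2. Hey2 (chr10:30832359-30842801, minus strand) had 1 read in Lgr5 mouse 1, 9 in a single cell of Lgr5 mouse 2 and none in the Lgr6 line. Set against the floor of 3 reads in the group, Hey2 was 22.2-fold higher in the summed reads of the Lgr5 line, which is no lower bound. That ratio rests on 10 reads, 9 of them in 1 cell of Lgr5 mouse 2. Without the depth of Lgr6 mouse 2 the ratio was 4.17-fold. Neither gene gave a level that could be compared between cells.

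By class, Heyl had the same order in both Lgr6 mice and Hes1 did not. Heyl was in 0 of 27 Acta2-high and 4 of 23 Acta2-lower cells of Lgr6 mouse 1, and in 3 of 38 and 5 of 37 cells of Lgr6 mouse 2. Its mean log2(TPM+1) was lower in the Acta2-high class of both mice, by differences of -1.11 and -0.31. Hes1 was in 3 of 27 Acta2-high and 3 of 23 Acta2-lower cells of Lgr6 mouse 1, where the difference of the means was 0.25 and the ratio of the summed levels 18.1, and in 1 of 38 and 9 of 37 cells of Lgr6 mouse 2, where the difference was -1.39 and the ratio 0.0183. The order of the Hes1 levels thus turned between the 2 mice.

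Whether the lines differed was tested on reads summed per mouse, by edgeR's quasi-likelihood test and Benjamini-Hochberg adjustment over all 14086 genes with enough reads. Only 5 of the 10 genes had enough reads to enter (Notch1, Notch2, Jag1, Hes1 and Heyl), and 0 of these 5 passed an adjusted p of 0.05, beside 0% of all genes tested (0 of 14086). At an unadjusted p under 0.05 the count over all genes was 1312. DESeq2 called 567 genes on the same sums and limma on mean log2 values per mouse 639, none of the 5 among them in either tool. The count of edgeR also turned on 1 mouse, with 34 genes called without Lgr6 mouse 1 and 7 without Lgr6 mouse 2.

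The fitted log2 fold changes (Lgr5 over Lgr6) of all 5 tested genes were below 0, with a median of -1.10 beside -0.05 for all genes tested, and none of the 5 passed. Without the filter on low counts all 10 genes had an estimate, 4 of them above 0 (Jag2, and Dll1, Dll4 and Hey2 against 0 reads) and 6 below, with a median of -0.62. For Notch2 the estimate was -1.10 (SE 0.62), lower in 2 of 2 Lgr5 mice than in either Lgr6 mouse, with an adjusted p of 0.679 from edgeR's quasi-likelihood test and Benjamini-Hochberg adjustment. For Heyl it was -2.35 (SE 1.14) with an adjusted p of 0.620 in the same test, and -0.88 when cells with reads of Cdh5, Kdr or Pecam1 were left out. Hes1 stood at -3.61 (SE 2.21) with an adjusted p of 0.701 in that edgeR test. Every SE given was worked back from its edgeR test, as the size of the estimate over the square root of the F value. The errors of Jag1 (-0.90, SE 1.58) and Notch1 (-0.31, SE 1.13) were larger than their estimates. Without Lgr5 mouse 1 the estimate of Notch1 became 0.40. It was also above 0 when cells with Epcam reads were left out (0.37) and on mean log2 values (0.00586), and that of Jag1 was above 0 with thinned cells (0.25) and on mean log2 values (0.0639). A line difference of 2 mice against 2 cannot reach an exact permutation p below 0.333, so no such test was made for single genes.

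Because only 1 Acta2-high cell came from the Lgr5 line, the lines were also compared in Acta2-lower cells alone, which all 4 mice contributed (28, 28, 23 and 37 cells). Again 0 of the 5 tested genes passed, beside 0% of the 12958 genes tested by edgeR, of which 976 had an unadjusted p under 0.05. DESeq2 called 389 genes and limma on mean log2 values 262, with 0 of the 5 in both. Leaving out 1 mouse left a lone mouse in its line. Of the 10 genes, 7 and 5 entered the fits without Lgr5 mice 1 and 2, and 7 and 7 those without Lgr6 mice 1 and 2. The median fitted log2 fold change of the 5 was -0.94, and that of all genes tested -0.0037. Over all 10 genes without the filter on low counts, 5 estimates were above 0, 3 of them against 0 reads, and 5 below, and the median of 0.47 had the other sign.

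Heyl came nearest to a call there, lower in the Lgr5 line by a fitted log2 fold change of -3.54 (SE 1.24). The unadjusted p was 0.0176 and the adjusted p 0.431 in edgeR's quasi-likelihood test and Benjamini-Hochberg adjustment. DESeq2 gave an adjusted p of 0.0594, and the adjusted p ranged from 0.0594 to 0.974 over 17 alternative settings, in 10 of which the unadjusted p was under 0.05. Without cells with reads of Cdh5, Kdr or Pecam1 the Heyl estimate was -1.68, with an unadjusted p of 0.317. Markers of alveolar fibroblasts moved with it: the 8 genes of that list, led by Npnt, added up to 122.8 and 90.8 TPM in the Acta2-lower cells of the Lgr5 mice and to 517 and 394 TPM in those of the Lgr6 mice. The fitted log2 fold changes went both ways, with 6 of the 8 below 0 and 2 above, Fgf10 (1.64) and Tcf21 (0.26). Wnt2 was at 0 in Lgr5 mouse 1 and Cd34 in Lgr5 mouse 2, and the part of alveolar fibroblasts in the Heyl difference was not tested. Hes1 had an estimate of -4.27 (SE 2.65) that became 0.67 without Lgr6 mouse 2. The estimate of Notch2, -0.64 (SE 0.86), was smaller than its error, and it lay at 0.0518 with thinned cells and 0.0737 without cells with endothelial reads. That of Jag1 was -0.02 (SE 2.40), and its sign changed under 11 of the alternatives, DESeq2 and plain library sizes included, to 0.84 without Lgr5 mouse 1 and to a value of no meaningful size without Lgr6 mouse 2, which leaves the Lgr6 line with 0 Jag1 reads.

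Acta2-high cells were compared with Acta2-lower cells within the 2 Lgr6 mice, with the mouse as a block. Here 6 of the 10 genes could be tested and 0 were called by edgeR, beside 0.0296% of all genes tested (4 of 13529). The 4 called genes were Acta2 itself, which defined the classes, and the surfactant genes Sftpa1, Sftpc and Sftpd, all 3 lower in Acta2-high cells. At an unadjusted p under 0.05 the count was 1039. DESeq2 called 923 genes, 1 of the 6 among them, and limma on mean log2 values 690, none of the 6. With 1 mouse left out no spread between mice remained, so no test could be made without either mouse.

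In that fit Notch2 was higher in Acta2-high cells of 2 of 2 mice, by a log2 fold change of 0.91 (SE 0.65), with an adjusted p of 0.968 in edgeR's quasi-likelihood test and Benjamini-Hochberg adjustment. The estimate was 1.54 in Lgr6 mouse 2 alone and 0.27 in Lgr6 mouse 1 alone. It turned to -0.79 when the limit was 10 and the few Lgr5-line cells above it entered. For Heyl the estimate was -6.26 (SE 3.79) with an adjusted p of 0.936 in the same edgeR test, and -1.92 without Lgr6 mouse 1. Without Lgr6 mouse 2 the Acta2-high cells have 0 Heyl reads, and the fitted value, -13.92, is then set by the prior count and has only a sign. DESeq2 called Heyl with a log2 fold change of -6.74 and an adjusted p of 0.000535. Over the 14 alternatives with a test the adjusted p of Heyl ran from 0.000535 to 1, and this was the only setting of the 3 comparisons in which any of the 10 genes was called.

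The other 4 tested genes had estimates near or below their errors. Notch1 stood at -1.19 (SE 1.22), Jag1 at 3.20 (SE 7.18), Hes1 at -0.97 (SE 6.71) and Hey1 at 2.44 (SE 10.73). Their order turned between the mice, with Jag1 at -1.99 without Lgr6 mouse 1, and Hes1 at 4.02 and Hey1 at -5.48 without Lgr6 mouse 2, the last against 0 reads and so of no size, whereas Notch1 stayed below 0 with either mouse left out. Of the 6 estimates 3 were above 0 and 3 below, with a median of -0.03 beside 0.02 for all genes tested. Without the filter on low counts Jag2 joined them at 1.66, and the median of the 7 was 0.92. The summed epithelial, smooth muscle and immune markers given above moved with this class split as well. So did the 8 alveolar fibroblast genes, led by Npnt, at 76.2 and 42.9 TPM in Acta2-high cells, with Wnt2 and Tcf21 at 0, against 517 and 394 TPM in Acta2-lower cells. Their part in the Notch values was not tested.

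**Figure D3:**
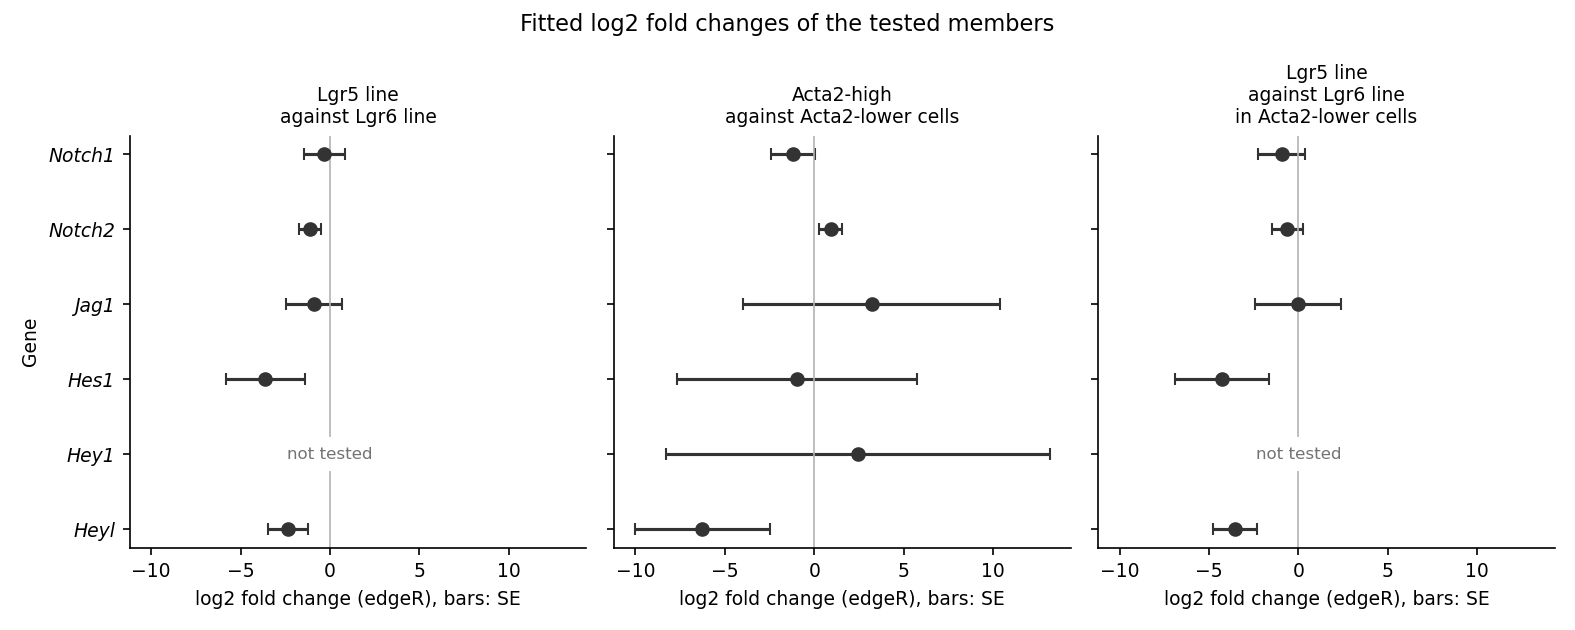
Fitted edgeR log2 fold changes (x axis) of the tested genes (y axis) in the 3 comparisons, with standard errors from F values as bars. None passed an adjusted p of 0.05; Heyl lies below 0 in each comparison, at -2.35, -6.26 and -3.54, and Notch2 lies at -1.10, 0.91 and -0.64, with its sign in the Acta2 and Acta2-lower comparisons changing under settings named in the text.

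Within the Acta2-lower cells, Heyl was found with 1 of 2 marker genes and Hes1 with both. This split, by reads of Pdgfra, a fibroblast receptor gene, and of Epcam, an epithelial adhesion gene, was chosen after the values were seen and is a description without a test. Of the Acta2-lower cells, 19 had reads of Pdgfra only, 18 of Epcam only, 4 of both and 75 of neither. Heyl reads were found in 12 of the 19 Pdgfra cells (63.2%; 95% interval 38.4 to 83.7), in 0 of the 18 Epcam cells (which allows up to 16.7%), in 0 of the 75 cells with neither (up to 4%) and in 0 of the 4 with both. All 12 Heyl-positive Acta2-lower cells were thus Pdgfra-positive and Epcam-negative.

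Among Acta2-lower cells the Heyl pattern recurred in each mouse, at 2 of 3, 1 of 2, 4 of 5 and 5 of 9 Pdgfra cells. Among Acta2-high cells Heyl was in 0 of the 4 with Pdgfra only, too few to compare since this allows up to 75%, and the other 3 Heyl-positive cells were Acta2-high cells of Lgr6 mouse 2 with neither marker. Over all kept cells Pdgfra reads were in 12 of 15 cells with Heyl and in 8.98% of the cells without it. The Pdgfra cells were deeper, with a median of 1148862 reads against 317817.5 for the Epcam cells and 371751 for those with neither, but after thinning Heyl was still in 10 of 16, 0 of 16 and 0 of 68 cells.

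Hes1, in contrast, was found with either marker. It had reads in 6 of 19 Pdgfra cells (31.6%), in 8 of 18 Epcam cells (44.4%) and in 2 of 75 cells with neither (2.67%), and after thinning in 5 of 16, 8 of 16 and 1 of 68. By mouse the Epcam cells with Hes1 were 0 of 4, 2 of 7, 2 of 3 and 4 of 4, and the Pdgfra cells 0 of 3, 1 of 2, 0 of 5 and 5 of 9, so Lgr6 mouse 2 held 5 of the 6 in the latter. Hes1 and Heyl shared 3 cells. Notch2 showed no such split, with reads in 13 of 19, 12 of 18 and 43 of 75 cells (68.4%, 66.7% and 57.3%).

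**Figure D4:**
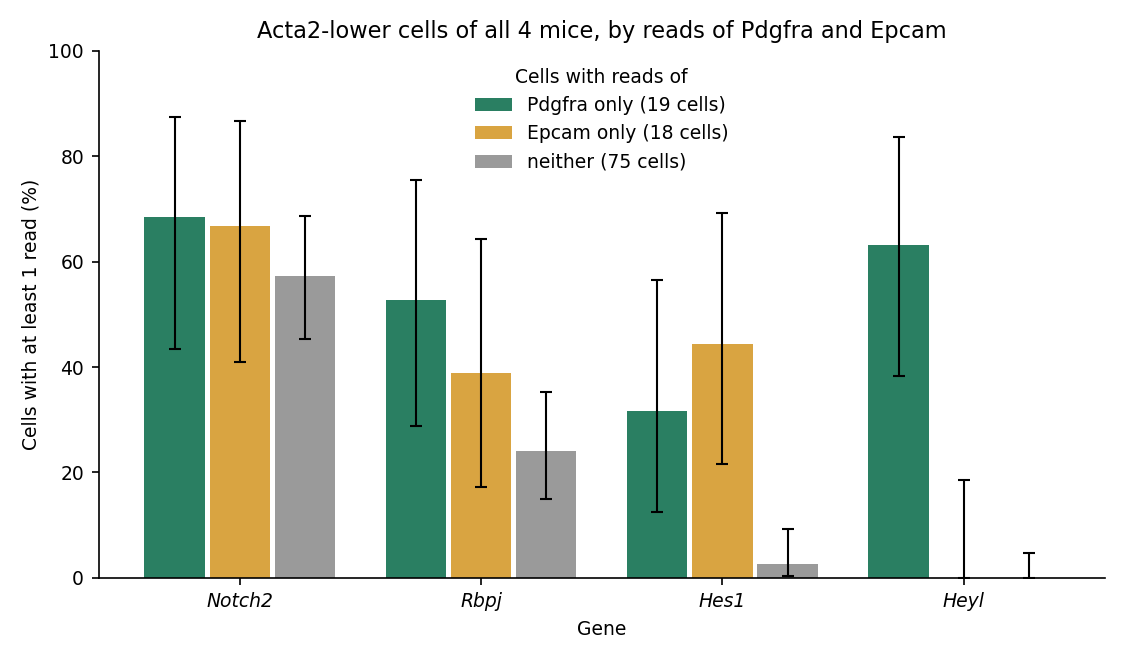
Share of Acta2-lower cells with a read (y axis, percent, with exact 95% intervals) of Notch2, Rbpj, Hes1 and Heyl, for cells with reads of Pdgfra only (19), Epcam only (18) or neither (75). Heyl was found only with Pdgfra (63.2%), Hes1 with either marker (31.6% and 44.4%) and rarely with neither (2.67%), and Notch2 in all 3 (57.3% to 68.4%).

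Few single cells had reads of a ligand, a receptor and a target at once. Since a ligand acts on a neighbouring cell, such counts describe detection and not signalling. Of the kept cells, 46 had reads of none of the 10 genes, 92 of exactly 1, 31 of 2 and 13 of 3 or more, up to 5. A receptor was found in 120 cells, a ligand in 24 and a target in 37. Receptor and target were found together in 30 cells, a target without either receptor in 7, and receptor and ligand together in 14. All 3 roles were present in 7 cells. With this many zeros an undetected gene need not be silent in a cell.

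For Notch2, the genes with the most similar pattern over the kept cells (29, 28, 50 and 75 by mouse), after the mean of each mouse was subtracted, were Tln1 (Pearson r 0.31), Tsc1 (0.30) and Fblim1 (0.29), out of 6815 genes detected in at least 20% of the cells, whose median r was 0.03. Rbpj stood at 0.16 (rank 353) and Acta2 at 0.14 (rank 552). These correlations are weak and across cells that share mice and plates, and the r of Notch2 with log2 depth was -0.03.

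The rest of the pathway was read from a list of 52 further genes, all of them in the files. Rbpj (chr5:53466152-53657362, plus strand), the DNA-binding partner of the Notch intracellular domain, was found in 10 of 29, 14 of 28, 11 of 50 and 24 of 75 cells, 59 in all (32.4%). Its summed level was 9.11, 134.03, 81.2 and 48.5 CPM, where 1 cell gave 60.2% of the reads of Lgr5 mouse 2, so the lines overlapped. In the Lgr6 mice its summed reads were higher in the Acta2-high class, by ratios of 2.57 and 2.53, and its mean log2(TPM+1) was 1.48 against 1.20 and 2.34 against 0.78. The fitted log2 fold change of 1.27 (SE 0.80) did not pass, with an adjusted p of 0.944 in edgeR's quasi-likelihood test and Benjamini-Hochberg adjustment.

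Several components of receptor cleavage were also detected. The sheddase gene Adam10 had reads in 36.8% of the kept cells and Adam17, another sheddase, in 25.3%. Of the gamma-secretase subunits, Ncstn was in 45.1% and Psenen in 41.8% of them. The remaining receptors were rare: Notch3, the receptor typical of vascular smooth muscle, had 19 reads in 4 cells of the Lgr5 line and none in the Lgr6 line, which allows up to 2.4% of cells, and Notch4 was in 7 cells. The ligand gene Dll3 was listed in 80 cells, but at a median of 3 reads, and Neurl3, from a family of ubiquitin ligases, in 89.6% of the kept cells at a median of 11 reads. Nrarp, Hes5 and Dlk2 had no reads in kept cells.

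Of the 52 genes, 44 were tested between the lines, 43 between the Acta2 classes and 41 between the lines in Acta2-lower cells. In each, 0 were called by edgeR, beside 0%, 0.0296% and 0% of all genes tested. Fitted values were above 0 for 22, 25 and 20 of the pathway genes, beside 6850 of 14086, 6819 of 13529 and 6462 of 12958 genes. The medians were -0.04, 0.43 and -0.02 beside -0.05, 0.02 and -0.0037 for all genes tested.

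Dlk1, a non-canonical Delta-like ligand gene known from fetal and progenitor cells, divided the lines most plainly. It had reads in 17 of 29 and 18 of 28 Lgr5-line cells, 61.4% together (95% interval 47.57 to 74.005), and in 0 of 50 and 0 of 75 Lgr6-line cells, which together allows up to 2.4%. The reads per positive cell were few, with medians of 8 and 9.5 and a most of 64, and they totalled 518. Set against a floor of 3 reads in the group, the summed level of the Lgr5 line was 1149-fold higher. Without the deeply sequenced Lgr6 mouse 2 the ratio was 216-fold. Reads of 1 cell are not independent, and a positive cell of the Lgr5 line held a median of 9 reads. These ratios are therefore no lower bounds on the difference.

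Despite this, Dlk1 was not called between the lines, with an unadjusted p of 0.00147 and an adjusted p of 0.327 in edgeR's quasi-likelihood test and Benjamini-Hochberg adjustment. Among 15 alternatives it was called in 3, and the adjusted p ran from 1.88e-08 with DESeq2 to 0.818. In Acta2-lower cells edgeR gave an adjusted p of 0.328, and the adjusted p over 17 alternatives ran from 1.28e-05 to 0.660, again with 3 calls. Among the single wells that the quality filter removed, Dlk1 was in 33 of 66 and 24 of 67 of the Lgr5 line and in 0 of 45 and 0 of 20 of the Lgr6 line. Those of Lgr6 mouse 1 were shallow, with a median of 11271 reads beside 439578.5 in Lgr6 mouse 2 and 278580.5 and 174049 in the Lgr5 line, so its 0 of 45 carries little weight. Erythroid markers moved with it: the 5 genes of that list added up to 43.9 and 273 TPM in the Lgr5 mice, led by Hba-a1 and Hba-a2, and to 0 and 9.04 TPM in the Lgr6 mice, with Klf1 at 0 in all 4 mice. Other lists differed between the lines as well. Hba-a2, Coro1a and Egfl7, of the erythroid, immune and endothelial lists, also had reads in kept cells of the Lgr5 line alone. Their fitted log2 fold changes were 13.86, 12.24 and 10.64, beside 12.84 for Dlk1, and none was called by edgeR. Tyrobp, Fcer1g and Lrrn4 had reads in the Lgr6 line alone. The share of all genes with reads in only 1 line is not given here. Fitted values were above 0 for 7 of 8 epithelial and 3 of 3 tested immune genes, and for 0 of 10 smooth muscle genes. The part of these markers in the Dlk1 values was not tested.

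The next pathway genes by p value between the lines were Neurl1a, a ubiquitin ligase gene acting on ligands, and Aph1b, a gamma-secretase subunit. Neurl1a had 0 and 5 reads in the Lgr5 mice against 589 and 1789 in the Lgr6 mice, with a log2 fold change of -6.49 (SE 2.05). Aph1b had 6 and 19 reads against 1236 and 715, with -4.62 (SE 1.63). Their adjusted p values were 0.379 and 0.419 in edgeR's quasi-likelihood test and Benjamini-Hochberg adjustment. Next came Adam17 (-2.003), Numb (2.22), Psenen (1.36), Spen (-1.96) and Dner (-5.06), the last resting on 4093 reads of 1 cell of Lgr6 mouse 1. In Acta2-lower cells Dlk1 was followed by Adam17 (-2.69), Dner (-6.47), Dtx3 (2.64), Aph1c (-2.60), Mib1 (3.17), Aph1b (-2.82) and Pofut1 (1.997), none of which passed.

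Between the Acta2 classes the first of the list was Neurl1a as well, with 588 against 1 reads in Lgr6 mouse 1 and 1564 against 225 in Lgr6 mouse 2 and an adjusted p of 0.830 by edgeR, followed by its relative Neurl2 with 566 against 3 and 2078 against 456 reads. Both were higher in the Acta2-high class of 2 of 2 mice and neither passed. Dtx4 (2.37), Kat2b (2.45), Maml2 (-0.92), Rbpj (1.27) and Ncstn (-0.89) came next in p, with their fitted log2 fold changes in parentheses, and did not pass. Adam17 was lower there in both mice, at 14.9 against 92.3 and 51.4 against 64.1 CPM, with a log2 fold change of -1.47 that did not pass.

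**Figure D5:**
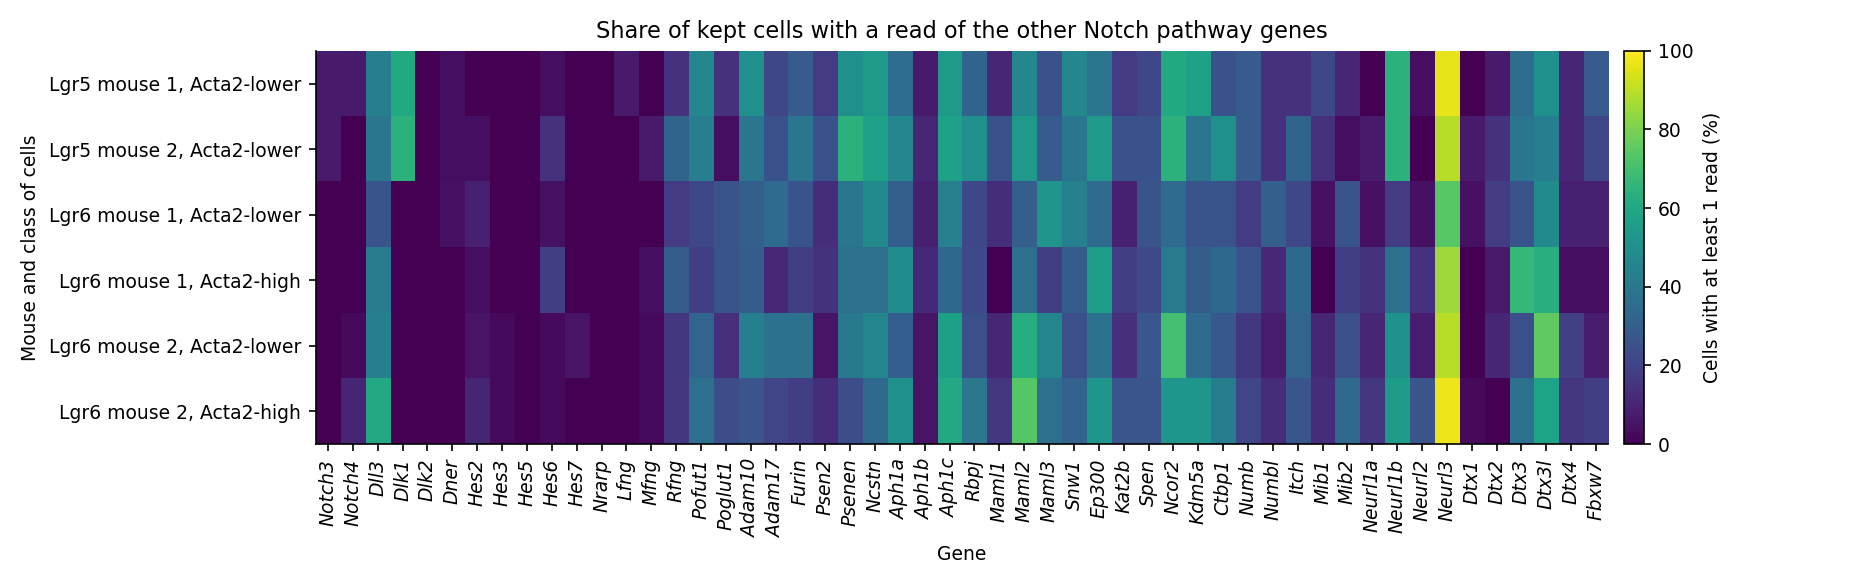
Share of kept cells with a read (colour, percent) of the 52 further pathway genes, grouped by role, in each mouse and Acta2 class with more than 1 cell. Dlk1 is seen in the Lgr5 mice only (58.6% and 64.3% of their kept cells), while Rbpj and Neurl3 are found in every mouse and class.

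A search for TGGGAA, the core of the site that Rbpj binds, on either strand of the 250 bases before each transcript start covered 32851 promoters in the RefSeq table of GRCm38, of which 21.6% held it. That table had entries for 7 of the 10 genes, and Hey2 was the only target among them and the only 1 of the 7 with the letters, once, on the reverse strand. The regions searched for Notch1 (chr2:26503823-26504072) and Jag2 (chr12:112929496-112929745) lay inside the gene spans given above. So did the Dll1 region chr17:15375824-15376073, but not its region chr17:15376933-15377182. Those of Jag1, Hey2 and Notch2 overlapped their gene spans in part. Hes1, Hey1 and Heyl were not in the table.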

How the data were processed

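Smart-seq2 libraries of single lung cells had been pseudo-aligned by the authors to the mm10 transcriptome with kallisto 0.43.0 after bcl2fastq 2.17.1.14. The deposited values used were whole read counts per gene and well, and log2(TPM+1) per cell for all wells and for the 182 cells left by the authors' filters on genes detected, housekeeping genes, reporter, Ptprc and Pecam1. The scaled counts were not used, and the 4 pools and 198 removed wells stayed out of the comparisons. Counts of the kept cells were added up for each mouse, or for each mouse and Acta2 class of at least 3 cells, and tested with edgeR 4.0.16 (filterByExpr, TMM, glmQLFTest) at an adjusted p of 0.05. The test between classes had the mouse as a block. DESeq2 1.42.0 and limma 3.58.1 (R 4.3.3; pseudocounts 1 and 0.1), thinning, other limits for Acta2 and other alternatives were run, and the fits were tested on simulated data. Descriptions used Python 3.11.15, pandas 2.3.3 and scipy 1.17.1. The genes named are the 10 members, Rbpj, Notch3, the 8 further pathway genes smallest in p in each comparison, leading and absent marker genes, and 3 correlated genes for each member found in at least 20% of cells; other named pathway genes, such as Adam10, Dll3, Neurl3 and the cleavage genes, were picked after their values were seen. The members and lists were chosen with earlier results of these data known, and 2 genes of the lists are not reported here. Mice of the 2 lines share replicate numbers only, and cells of 1 mouse are not replicates.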

Additional observations from a re-analysis of the deposited data

Results flagged for a closer look

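Wells that the quality filter removed were outside the comparisons. In the Lgr5 mice, removed wells with Pecam1 above the limit and Ptprc below it, a class chosen after the values were seen, had Notch1 reads more often than kept cells at equal depth. Notch1 was in 8 of 10 such wells of mouse 1 (80%; 95% interval 44.4 to 97.5) and in 10 of 15 of mouse 2 (66.7%; 38.4 to 88.2), against 3 of 28 (10.7%) and 3 of 25 (12%) kept cells. Dll4 was in 8 of 10 and 6 of 15 of these wells against 0 of 28 and 2 of 25 kept cells. The intervals of removed and kept wells were apart for Notch1, Jag1 and Dll4 in mouse 1 and for Notch1 and Dll1 in mouse 2. Wells of 1 mouse are not replicates, and the share of all genes with intervals apart is not given here, so the intervals single out no gene. At 99000 reads these wells also had more genes, a median of 5538.5 and 4729 against 3583 and 3033. Over all 11 and 18 wells of this class, without thinning, the 10 endothelial genes added up to 6853 and 4315 TPM, led by Cldn5. The 8 epithelial genes added up to 62431 and 38300 TPM there. The 8 immune genes added up to 7876 and 10876 TPM, against 1453 and 4504 TPM in the kept cells. No test was made, and the part of cell type, of wells with more than 1 cell and of RNA content was not tested.

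The pools, 1 well per mouse, gave reads of some of the 10 genes above the 3 reads that a count of 0 allows. The pool of Lgr5 mouse 1 had 56 Heyl reads of 353310, that of Lgr6 mouse 1 had 6 Notch2 reads of 66586, and that of Lgr6 mouse 2 had 30 Notch2 reads of 2203576. The pool of Lgr5 mouse 2 had none of the 10 genes.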

How the results depend on the processing

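Counts of called genes moved with the tool, the filter on low counts, the scale of the values and the cells. Between the lines, where edgeR called 0, the count was 567 with DESeq2, 408 without the filter on low counts, 639 with limma on mean log2 values, 38 and 16 with limma on log2 of mean TPM with pseudocounts 1 and 0.1, and 4 with thinned cells. Leaving out a mouse gave 0 to 34 calls, 34 without Lgr6 mouse 1 and 7 without Lgr6 mouse 2. Such fits assume that the lone mouse of a line varies like the other group.

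Between the Acta2 classes, where edgeR called 4, the count was 923 with DESeq2 (376 higher and 547 lower), 5 without the filter, 690, 42 and 11 with the same 3 limma settings, 11 with thinned cells, 0 without Epcam cells, 3 with library sizes, 14 with a limit of 10 and 0 with a limit of 12. After the data were seen, 2 settings were added, with 7 calls without Rn45s and 11 with a limit of 10 in the Lgr6 mice only. Without the mouse as a block the count was 0. Leaving out a mouse left no degrees of freedom, hence values without a test.

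Between the lines in Acta2-lower cells, where edgeR called 0, the count was 389 with DESeq2, about 1.6e+02 without the filter (69 higher and 88 lower), 262, 28 and 3 with the limma settings and 4 with thinned cells. Leaving out a mouse gave 6 to 74 calls: 25 without Lgr5 mouse 1, 6 without Lgr5 mouse 2, 27 without Lgr6 mouse 1 and 74 without Lgr6 mouse 2. TMM put the median log2 fold change of all genes there at -0.0037 and library sizes at 0.18. With mouse numbers as a block the count stayed 0 in both line comparisons.

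Signs changed in 28 of 283 log2 fold changes, and the cause was not tested. Between the lines Notch1 turned to 0.00586 with limma on mean log2 values, 0.37 without Epcam cells and 0.40 without Lgr5 mouse 1, and Jag1 to 0.0639 with limma on mean log2 values and 0.25 with thinned cells. Leave-one-out ranges were -1.75 to 0.40 for Notch1, -1.77 to -0.62 for Notch2, -3.43 to -0.03 for Jag1, -12.09 to -2.63 for Hes1 and -3.64 to -1.58 for Heyl.

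Between the Acta2 classes, a limit of 10 in 4 mice turned Notch2 to -0.79 and Jag1 to -2.97, and a limit of 10 in the Lgr6 mice only turned Hes1 to 0.19. Hey1 became -0.0632 with limma on mean log2 values and -0.23 and -0.25 with pseudocounts 1 and 0.1. Without Lgr6 mouse 1 Jag1 became -1.99, and without Lgr6 mouse 2 Hes1 became 4.02 and Hey1 -5.48. The leave-one-out ranges were 0.27 to 1.54 for Notch2, -1.99 to 11.36 for Jag1, -5.82 to 4.02 for Hes1, -5.48 to 10.81 for Hey1, -1.37 to -1.02 for Notch1 and -13.92 to -1.92 for Heyl.

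In Acta2-lower cells Notch2 turned to 0.0518 with thinned cells and 0.0737 without cells with Cdh5, Kdr or Pecam1. Jag1 turned to 0.0856 with DESeq2, 0.0923 with library sizes, 0.12 with limma on mean log2 values, 0.31 and 1.16 with pseudocounts 1 and 0.1, 0.99 with thinned cells, 0.36 without Epcam cells, 0.84 without Lgr5 mouse 1, 8.995 without Lgr6 mouse 2 and 0.21 with a limit of 12. With mouse numbers as a block Jag1 became 2.09, although equal numbers link no mice. Hes1 became 0.67 without Lgr6 mouse 2. Leave-one-out ranges were -2.24 to -0.25 for Notch1, -1.27 to -0.15 for Notch2, -2.42 to 8.995 for Jag1, -11.69 to 0.67 for Hes1 and -4.96 to -2.38 for Heyl.

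Thinning moved shares of cells to 49.3% for Notch2 in Lgr6 mouse 2 and 3.57% for Jag1 in Lgr5 mouse 1, and to 0 for Dll1 and Hey2 in Lgr5 mouse 1, Hey1 in Lgr6 mouse 1 and Jag2 in Lgr6 mouse 2. A TPM above 1 in place of a read also gave 49.3% for Notch2 in Lgr6 mouse 2.

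Some leave-one-out values compare with 0 reads, so that the prior count sets them and only their sign can be read: Hes1 at -12.09 between the lines, Jag1 at 11.36, Heyl at -13.92 and Hey1 at -5.48 and 10.81 between the Acta2 classes, and Jag1 at 8.995 and Hes1 at -11.69 in Acta2-lower cells.

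The data have limits that no setting removes. Each line had 2 mice, the lines differ in allele and reporter, and 1 mouse was sequenced far deeper than the rest. A line by class interaction could not be fitted at a limit of 11, since the Lgr5 mice had 1 and 0 Acta2-high cells. At a limit of 10, tried after the data were seen, it called 0 of 13976 genes. Most of the 10 genes rest on few cells.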
